A study of Mus musculus with 6 samples.

Results

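Csn3, Stra8, Tal2, Arg1, Aurkc, Krtdap, Dmkn and Sytl4 are 8 genes best known from tissues other than caudal progenitors, which were low in vehicle-treated NMPs and higher after 2 h with retinoic acid (RA). They were chosen by these measured values, that is by their levels in DMSO and their differences from DMSO at one or both RA doses, and by their known tissues. Their changes from DMSO are therefore a description and carry no test. The difference between the RA doses is another contrast of the same samples, so that its p-values are not independent of the choice. Neighbouring genes and relatives are not free of the choice either. A low gene of another tissue that rose could itself have joined the 8, as the neighbours Dmkn and Krtdap did. The lists of relatives were also made with earlier results of these data known. All 8 were found in each of the 6 sample tables, among 20631 genes, and the transcripts of a gene were summed.

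The study compared NMPs (neuromesodermal progenitors), caudal cells that can form both spinal cord and presomitic mesoderm, derived from mouse embryonic stem cells (ESCs) with bFGF for 2 days and bFGF plus the WNT agonist CHIR99021 for 1 further day. At that point bFGF and CHIR99021 were removed from every dish, and the cells were kept for 2 h in N2B27 medium free of retinoids with the DMSO vehicle, with 25 nM RA or with 1 µM RA, in 2 samples per condition. The labels give the strain as 129 R1, while the methods name C57BL/6 ESCs grown on embryonic fibroblast feeders before differentiation. The 2 samples of a condition are dishes of 1 experiment, so that no error below measures the spread between experiments. SDs give the spread between 2 dishes, and standard errors come from a fit of all 6 samples. Intervals of count ratios cover counting error only. In bulk RNA a change in few cells cannot be told apart from a smaller change in all cells.

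RA acts by binding nuclear RA receptors, which sit on DNA with RXR partners at pairs of short core motifs and regulate nearby genes. Among the 8 genes, Stra8 takes its name from its stimulation by RA and is needed for germ cells to enter meiosis. Aurkc encodes aurora kinase C, the aurora kinase of meiotic cells. Csn3 encodes kappa-casein, a milk protein of the lactating mammary gland that stabilizes casein micelles. Arg1 encodes the liver arginase of the urea cycle, which is also a marker of alternatively activated macrophages. Tal2 is a basic helix-loop-helix transcription factor needed for GABAergic neurons of the midbrain. Dmkn (dermokine) and Krtdap (keratinocyte differentiation associated protein) are secreted products of differentiated epidermis. Sytl4, or granuphilin, binds Rab27 on the secretory granules of endocrine cells.

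Depth ranged from 31753556 to 42029348 estimated counts in a sample, and 15143 genes had enough counts to be tested. Among the NMP markers, T, the brachyury factor, was at 375.2 RPKM ± 6.98 (SD, n = 2) in DMSO and Nkx1-2 at 39.1 RPKM ± 0.250 (SD, n = 2), whereas Cdx4 was counted at most 7 times in a sample. Sox2, which NMPs express together with T, was at only 5.20 RPKM ± 0.00892 (SD, n = 2) in DMSO. The DMSO means of Cdx1, Cdx2, Wnt3a and Fgf8 were 6.36, 5.09, 7.42 and 58.3 RPKM. Of 8 NMP markers 7 were tested, with 5 called higher and 1 lower at 25 nM RA and 4 higher and 1 lower at 1 µM RA. Of 7 feeder fibroblast markers 6 were tested, of which none was called at 25 nM and 3 were called lower at 1 µM RA, and their summed level was 5.94 to 6.27 RPKM in DMSO and 5.26 to 5.43 RPKM at 1 µM RA. RPKM scales reads to transcript length and to sequencing depth, so that it can be compared between genes. A gene was called with an adjusted p under 0.1 in edgeR's likelihood ratio test over all genes tested, and the summed counts were rounded to whole numbers for that test.

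Silence in DMSO held for some of the 8 genes only. In DMSO, Csn3 and Stra8 had 0 to 2 counts in a sample and Tal2 had 3 and 10. Krtdap and Aurkc were already counted 8 to 18 times per sample, Dmkn 19 and 24 times, Sytl4 86 and 106 times and Arg1 96 and 134 times. The mean level in DMSO ran from 0.00740 RPKM for Csn3 to 1.65 RPKM for Arg1, and Arg1 stood at percentile 50.5 of all genes before any RA was added. Only 4 of the 8 genes (Arg1, Aurkc, Dmkn and Sytl4) would have passed the filter on low counts, a cutoff of 0.276 CPM (counts scaled to library size) in 2 samples, on their DMSO samples, and the other 4 passed through their RA samples.

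At 25 nM RA, 7 of the 8 genes were called higher than DMSO, beside 4.50% of all tested genes called higher and 3.55% called lower. Krtdap was the exception. With 1 µM RA all 8 were called higher, beside 8.54% called higher and 11.2% called lower. Of the 5272 tested genes under 2 RPKM in DMSO, which include the 8, 5.20% were called higher at 25 nM RA and 6.83% at 1 µM RA. For each of the 8 genes both RA samples of either dose lay above both DMSO samples, a lack of overlap that 23.6% of tested genes showed at 25 nM RA and 29.0% at 1 µM RA. These counts follow from the choice of the genes and are given only to place them.

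**Figure D1:**
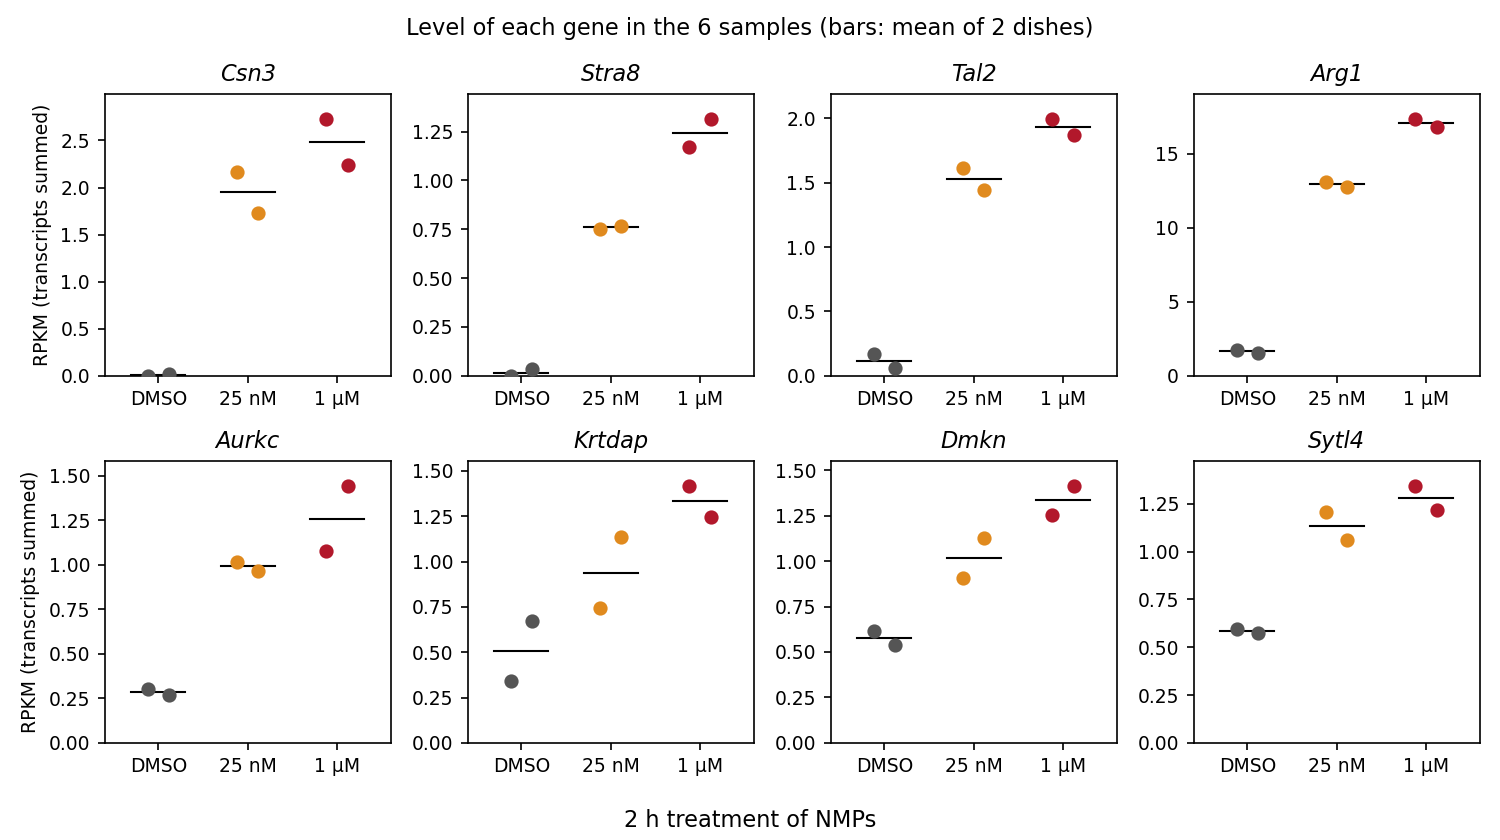
RPKM (vertical axes, each starting at 0) of the 8 genes in the 6 samples, with points for single dishes and bars for the mean of 2 dishes in DMSO, 25 nM RA and 1 µM RA. In every panel the DMSO dishes are lowest and the 1 µM dishes highest, from means of 1.24 RPKM for Stra8 to 17.1 RPKM for Arg1 at 1 µM RA.

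The germ cell genes are described first. Stra8 (chromosome 6, mm10, positions 34920960 to 34939342, plus strand, 1 transcript of 1455 bases) was counted 0 and 2 times in the DMSO dishes, 42 and 54 times with 25 nM RA, and 74 and 84 times with 1 µM RA. Its level was 0.0162 RPKM ± 0.0230 (SD, n = 2) in DMSO, 0.759 ± 0.0120 at 25 nM and 1.24 ± 0.10 at 1 µM RA. The RA dishes of either dose stood well clear of DMSO and of each other. The log2 fold change was 5.52 (SE 1.03) at 25 nM and 6.22 (SE 1.03) at 1 µM RA, the second largest of all tested genes at either dose. Since the DMSO dishes held 2 counts together, the fitted size depends on the prior count of the fit, and at 1 µM RA it was 5.16 without the first and 9.35 without the second DMSO dish. The ratio of the summed counts at 1 µM RA was 84.4 with an exact 95% counting interval from 23.0 to 703.

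The region before the start of Stra8 is shown because it holds 2 copies of the nuclear receptor core motif AGGTCA in the same direction as the gene, starting 194 and 38 bases before the RefSeq start. These are the 250 bases before that start (chr6:34920698-34920947, plus strand, RefSeq, GRCm38.p6), with the motifs in capitals.

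Stra8: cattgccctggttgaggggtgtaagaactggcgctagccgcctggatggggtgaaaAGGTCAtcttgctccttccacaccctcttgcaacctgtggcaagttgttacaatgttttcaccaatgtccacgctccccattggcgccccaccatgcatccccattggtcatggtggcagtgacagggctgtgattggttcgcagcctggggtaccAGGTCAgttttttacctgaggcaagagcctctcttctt

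Aurkc is shown next because its window holds 1 AGGTCA, on the opposite strand and therefore printed as TGACCT, between 78 and 73 bases before the start (chr7:6995135-6995384, plus strand). Tal2 is shown as the strongest rise in the set whose window holds none (chr4:53779451-53779700, plus strand).

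Aurkc: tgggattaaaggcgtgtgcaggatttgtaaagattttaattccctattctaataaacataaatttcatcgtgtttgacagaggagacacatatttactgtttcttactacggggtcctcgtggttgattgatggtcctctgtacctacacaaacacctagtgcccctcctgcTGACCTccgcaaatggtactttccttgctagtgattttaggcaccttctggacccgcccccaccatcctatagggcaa

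Tal2: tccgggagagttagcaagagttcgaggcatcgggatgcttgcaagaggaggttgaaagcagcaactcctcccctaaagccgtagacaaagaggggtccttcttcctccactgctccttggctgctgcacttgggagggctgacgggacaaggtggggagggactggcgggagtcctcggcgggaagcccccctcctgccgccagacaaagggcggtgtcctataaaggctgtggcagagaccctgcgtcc

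RefSeq gave promoter windows, from 250 bases before to 50 bases after the start, for 6 of the 8 genes, with 3 starts for Dmkn. All windows were searched on both strands for AGGTCA, for the variant AGTTCA, for the variant GGGTCA and for the variant GGTTCA, with overlapping matches allowed. Stra8 and Aurkc held AGGTCA, and no window of Tal2, Krtdap, Dmkn or Sytl4 held any of these letters. At least 1 AGGTCA was present in 16.3% of all 32851 promoter windows, 2 or more in 1.81%, and any of the 4 motifs in 43.7%. The shares for the 3 variants alone, in the order above, were 14%, 13.7% and 10.4%. No window of these genes held 2 such motifs as a direct repeat with 1, 2 or 5 bases between, arrangements found in 0.222%, 0.268% and 0.0974% of all windows. A match is a run of letters and not a binding site, and sequence farther from the start was not analysed here.

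Aurkc (chromosome 7, positions 6995385 to 7003091, plus strand) was counted 18 and 13 times in DMSO, 48 and 58 times with 25 nM RA, and 56 and 80 times with 1 µM RA. Its level went from 0.285 RPKM ± 0.0259 (SD, n = 2) to 0.992 ± 0.0328 and 1.26 ± 0.257. The 1 µM dishes, at 1.08 and 1.44 RPKM, were farther apart than those of 25 nM RA, at 1.01 and 0.968. On the log2 scale the rise was 1.87 (SE 0.31) at 25 nM and 2.22 (SE 0.31) at 1 µM RA. The 3 transcripts of Aurkc share most of their length, and their estimated split was not stable between dishes. NM_020572 received 2.47 counts in one 1 µM dish and 44.9 in the other, so that only the sum over the gene is used here.

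The meiotic list showed how far the other genes of germ cells moved. Of the 21 genes on it beside Stra8, 20 were in the tables and 17 were tested. Of these, 2 were called higher at 25 nM and 3 at 1 µM RA, and none was called lower at either dose. For this list and the others described here, the shares of all tested genes called higher were 4.50% at 25 nM and 8.54% at 1 µM RA. The shares called lower were 3.55% and 11.2%. The median log2 fold change of the list was 0.14 at both doses, where that of all tested genes was 0.00 (-0.00051 and 0.0013). Rec8, a meiotic cohesin subunit, rose from 0.95 RPKM ± 0.140 (SD, n = 2) by a log2 fold change of 0.72 (SE 0.15, edgeR adjusted p = 7.5e-05) at 25 nM and of 0.59 (SE 0.15, edgeR adjusted p = 0.0016) at 1 µM RA. Prdm9, which marks sites of meiotic recombination, was the other gene called at 25 nM. It rose from 0.463 RPKM ± 0.0840 (SD, n = 2) to 0.646 ± 0.0747, by a log2 fold change of 0.47 (SE 0.18, edgeR adjusted p = 0.0998). Sycp3, a lateral element of the synaptonemal complex, rose at 1 µM RA by 0.34 (SE 0.09, edgeR adjusted p = 0.0011), from 7.10 RPKM ± 0.487 (SD, n = 2). Syce2, a central element of the same structure, rose by 0.20 (SE 0.08, edgeR adjusted p = 0.099) at that dose. Sycp1 was called at neither dose against DMSO. Between the doses it was called lower at 1 µM than at 25 nM RA, by -0.46 (SE 0.16, edgeR adjusted p = 0.095).

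Most germ cell markers were not called. Ddx4, the germ cell RNA helicase, was counted 150 and 108 times in DMSO and 139 and 127 times with 1 µM RA, and Dazl, an RNA-binding protein of germ cells, 26 and 16 times against 23 and 16 times. Neither was called. Of 8 male germ cell markers, 7 were tested and 1, Sycp3, was called higher at 1 µM RA than in DMSO. Sycp1 is also among these 8 markers and was called lower at 1 µM than at 25 nM RA. The summed level of the 8 markers was 10.4 to 11.5 RPKM in DMSO, 12 to 12.5 at 25 nM and 13.1 to 13.3 at 1 µM RA. Of this, Sycp3 alone had a mean of 7.10, 8.15 and 9.07 RPKM. The part of these markers in the values of Stra8 and Aurkc was not tested.

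The paralogs of Aurkc were abundant and were not called. Aurka was at 66.8 RPKM ± 2.10 (SD, n = 2) in DMSO and at 71.0 ± 1.15 with 1 µM RA, with a log2 fold change of 0.08 (SE 0.05). Aurkb was at 34.5 ± 0.301 and 35.9 ± 0.387, with a log2 fold change of 0.05 (SE 0.05). None of the 5 genes tested beside Aurkc (the other aurora kinases and the chromosomal passenger proteins Incenp, Birc5 and Cdca8) was called at either dose, and their median log2 fold changes were 0.04 and 0.02. Even with 1 µM RA, the level of Aurkc per kilobase stayed far under that of either paralog, and any reads shared by the aurora kinases leave the split between them uncertain.

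Csn3 (chromosome 5, positions 87925633 to 87932264, plus strand, 1 transcript of 1597 bases) showed the largest log2 fold change of all tested genes at either dose. It was counted 0 times and 1 time in the DMSO dishes, 133 and 134 times with 25 nM RA, and 189 and 157 times with 1 µM RA. The levels were 0.00740 RPKM ± 0.0105 (SD, n = 2), 1.95 ± 0.304 and 2.48 ± 0.347. DMSO and RA dishes were far apart, whereas the dishes of the 2 doses lay close together, at 1.73 and 2.17 RPKM against 2.24 and 2.73 RPKM. The log2 fold change was 7.84 (SE 1.45) at 25 nM and 8.20 (SE 1.45) at 1 µM RA, and rests on a single DMSO count. Without the first DMSO dish it was 7.21 at 1 µM RA, and without the second, which held that count, 10.48. The ratio of summed counts to DMSO was 288 (exact 95% counting interval 51.2 to 11410) at 25 nM and 370 (65.9 to 14643) at 1 µM RA.

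Little could be measured of other milk genes. Of the 8 casein cluster and milk genes listed beside Csn3, 2 were in the tables, and both were at the limit of detection: Csn1s2a, an alpha-S2 casein, had 1 count in 1 dish of 1 µM RA, and Wap, whey acidic protein, had 1 count in each of 2 RA dishes. The other 6 were not analysed here. The annotation places Csn3 wholly within 1700066N21Rik, a long non-coding gene on the opposite strand that has no row in the tables. The libraries keep strand, but whether the counting used it is not given in the sources used here, so that reads of the 2 genes cannot be told apart.

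Arg1 (chromosome 10, positions 24915207 to 24927470, minus strand, 1 transcript of 1477 bases) was by far the most abundant of the 8 genes. It was counted 134 and 96 times in DMSO, 744 and 912 times with 25 nM RA, and 1112 and 1091 times with 1 µM RA. The levels were 1.65 RPKM ± 0.159 (SD, n = 2), 12.9 ± 0.232 and 17.1 ± 0.384, with narrow gaps between dishes and wide gaps between conditions. The RefSeq table also places Gm40616, a long non-coding gene on the opposite strand, over part of Arg1, and reads of the 2 genes cannot be told apart where they overlap. Its log2 fold change was 2.96 (SE 0.11) at 25 nM and 3.35 (SE 0.11) at 1 µM RA. The level of Arg1 moved from percentile 50.5 of all genes in DMSO to 77.5 at 25 nM and 81.8 at 1 µM RA.

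The rest of the urea cycle and arginine metabolism did not move in the same way. Of 9 further genes, all in the tables, 7 were tested. Of these 1, Ass1, which makes argininosuccinate, was called higher at 25 nM RA, from 5.93 RPKM ± 1.39 (SD, n = 2) to 9.23 ± 0.0902, by a log2 fold change of 0.64 (SE 0.13, edgeR adjusted p = 3e-05). With 1 µM RA it was at 6.69 ± 1.30, a log2 fold change of 0.17 (SE 0.13), and it was called lower than at 25 nM RA, by -0.47 (SE 0.13, edgeR adjusted p = 0.017). No gene of this list was called at 1 µM RA, where the median log2 fold change was 0.17 and that at 25 nM was -0.0086. Arg2, the mitochondrial arginase, was at 0.297 RPKM ± 0.0298 (SD, n = 2) in DMSO and 0.349 ± 0.0309 with 1 µM RA. The urea cycle enzymes Cps1 and Otc, both also on the list of hepatocyte markers, had 0 to 2 counts in every dish.

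Markers of the cells in which Arg1 is well known were examined next. Among 8 hepatocyte markers only Apob, with 181 to 261 counts in a dish, was tested and it was not called, and Alb, albumin, had at most 2 counts in a dish. The summed level of the 8 markers was 0.381 to 0.564 RPKM in DMSO and 0.457 to 0.602 RPKM with 1 µM RA. Among 6 macrophage markers in the tables, Adgre1 (F4/80), Ptprc (CD45) and Retnla had 0 to 2 counts in any dish, Csf1r had 5 to 12, and Cd68 and Mrc1 were tested and not called. Cd68, at 2.08 RPKM ± 0.385 (SD, n = 2) in DMSO and 2.13 ± 0.142 with 1 µM RA, made up most of their summed level. The 6 summed to 1.97 to 2.48 RPKM in DMSO and to 2.17 to 2.36 RPKM with 1 µM RA.

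Tal2 (chromosome 4, positions 53779705 to 53786885, plus strand, 1 transcript of 1144 bases) was counted 10 and 3 times in DMSO, 71 and 80 times with 25 nM RA, and 99 and 94 times with 1 µM RA. The levels were 0.116 RPKM ± 0.0762 (SD, n = 2), 1.53 ± 0.118 and 1.93 ± 0.0882, so that DMSO lay far below and the 2 doses lay near each other without overlap. Its log2 fold change was 3.62 (SE 0.42) at 25 nM and 3.96 (SE 0.42) at 1 µM RA, the rank 8 among all tested genes at either dose. Without the first DMSO dish it was 4.55 and 4.89, and without the second 3.15 and 3.49. Summed counts gave a ratio to DMSO of 15.9 at 1 µM RA (exact 95% counting interval 9.06 to 30.3).

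Of 11 relatives and partners listed beside Tal2, 7 were tested, and 1, Lmo2, a LIM domain partner of these factors, was called. It rose from 3.67 RPKM ± 0.159 (SD, n = 2) by 0.55 (SE 0.09) on the log2 scale at both doses (edgeR adjusted p = 3e-07 at 25 nM and 1.5e-07 at 1 µM RA). Tal1, the closest relative on the list, was at 0.0755 RPKM ± 0.00382 (SD, n = 2) in DMSO and 0.111 ± 0.0105 with 1 µM RA and was not called, and Lyl1 was too low to be tested. The list medians were -0.05 and -0.10. Of 6 markers of midbrain GABAergic neurons, Gad1, Gad2 and Gata2 were tested and none was called at either dose. Their summed level was 0.884 to 0.890 RPKM in DMSO and 0.719 to 0.783 RPKM with 1 µM RA, and Slc32a1, the vesicular GABA transporter, had 0 to 5 counts in a dish. Of 6 erythroid markers, the setting of Tal1, the 5 in the tables gave 4 tested genes, of which Epor, the erythropoietin receptor, fell by 0.31 on the log2 scale (SE 0.10, edgeR adjusted p = 0.019) at 1 µM RA.

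The epidermal genes Dmkn and Krtdap are neighbours on chromosome 7, 6.84 kb apart, and were both low. Dmkn (positions 30763756 to 30781066, plus strand, 4 transcripts) was counted 24 and 19 times in DMSO, 29 and 49 times with 25 nM RA, and 44 and 43 times with 1 µM RA, which is 0.577 RPKM ± 0.0569 (SD, n = 2), 1.02 ± 0.157 and 1.33 ± 0.11. Its shortest transcript, NM_028618 of 661 bases from an inner start, took 74.4% of the counts of the gene over the 6 dishes. The log2 fold change of Dmkn was 0.96 (SE 0.29) at 25 nM and 1.11 (SE 0.28) at 1 µM RA. Its call at 25 nM RA rested on few counts and was lost when either DMSO dish or the second 25 nM dish was left out.

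Krtdap (positions 30787905 to 30791083, plus strand, 1 transcript of 456 bases) was counted 8 and 13 times in DMSO, 13 and 25 times with 25 nM RA, and 28 and 25 times with 1 µM RA. In RPKM the dishes were at 0.341 and 0.674 in DMSO, at 0.741 and 1.13 with 25 nM RA, and at 1.41 and 1.25 with 1 µM RA. The spread within DMSO and within 25 nM RA was nearly as wide as the step between them. The log2 fold change was 0.95 (SE 0.41) at 25 nM, which was not called, and 1.42 (SE 0.39) at 1 µM RA. Without the first DMSO dish the log2 fold change at 1 µM RA was 0.96 and was not called.

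Sbsn (suprabasin), the third gene of this secreted epidermal locus, lies 7.62 kb before Dmkn. It was counted 56 and 49 times in DMSO, 54 and 49 times with 25 nM RA and 67 and 67 times with 1 µM RA, with a log2 fold change of 0.08 (SE 0.22) and 0.45 (SE 0.20), neither of which was called. Of 7 genes listed beside Dmkn and Krtdap for stratified epithelium, 6 were in the tables and 4 were tested. None was called higher, and Lor, loricrin of the cornified envelope, fell by 0.77 on the log2 scale at 1 µM RA (SE 0.27, edgeR adjusted p = 0.024). The median of the 4 was -0.01 at 25 nM and -0.11 at 1 µM RA. Among 8 keratinocyte markers, Krt1, Krt5, Krt14, Krt15, Trp63, Dsg3 and Ivl had 0 to 6 counts in any dish, and Krt10 was tested and not called. Their sum was 1.41 to 1.43 RPKM in DMSO and 1.20 to 1.38 RPKM with 1 µM RA.

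Sytl4 (chromosome X, positions 133936385 to 133981812, minus strand, 4 transcripts) was counted 106 and 86 times in DMSO, 166 and 178 times with 25 nM RA, and 203 and 186 times with 1 µM RA. The levels were 0.584 RPKM ± 0.0164 (SD, n = 2), 1.13 ± 0.105 and 1.28 ± 0.0865, and most of the step was present at 25 nM RA. The log2 fold change was 0.95 (SE 0.15) at 25 nM and 1.11 (SE 0.14) at 1 µM RA. Its 4 transcripts overlap, and the most counted of them, NM_013757 with 55.2% of the counts, had alone log2 fold changes of 1.07 at 25 nM and 0.92 at 1 µM RA, neither of them called, while NM_001290717 was called at 1 µM RA, with 1.89. Of 9 genes listed beside it, all tested, 1 was called at both doses. This was Sytl1, another synaptotagmin-like protein that binds Rab27, which rose from 1.47 RPKM ± 0.11 (SD, n = 2) by 0.56 (SE 0.13, edgeR adjusted p = 0.00055) at 25 nM and by 0.40 (SE 0.13, edgeR adjusted p = 0.021) at 1 µM RA on the log2 scale. The list medians were 0.10 and 0.09.

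**Figure D2:**
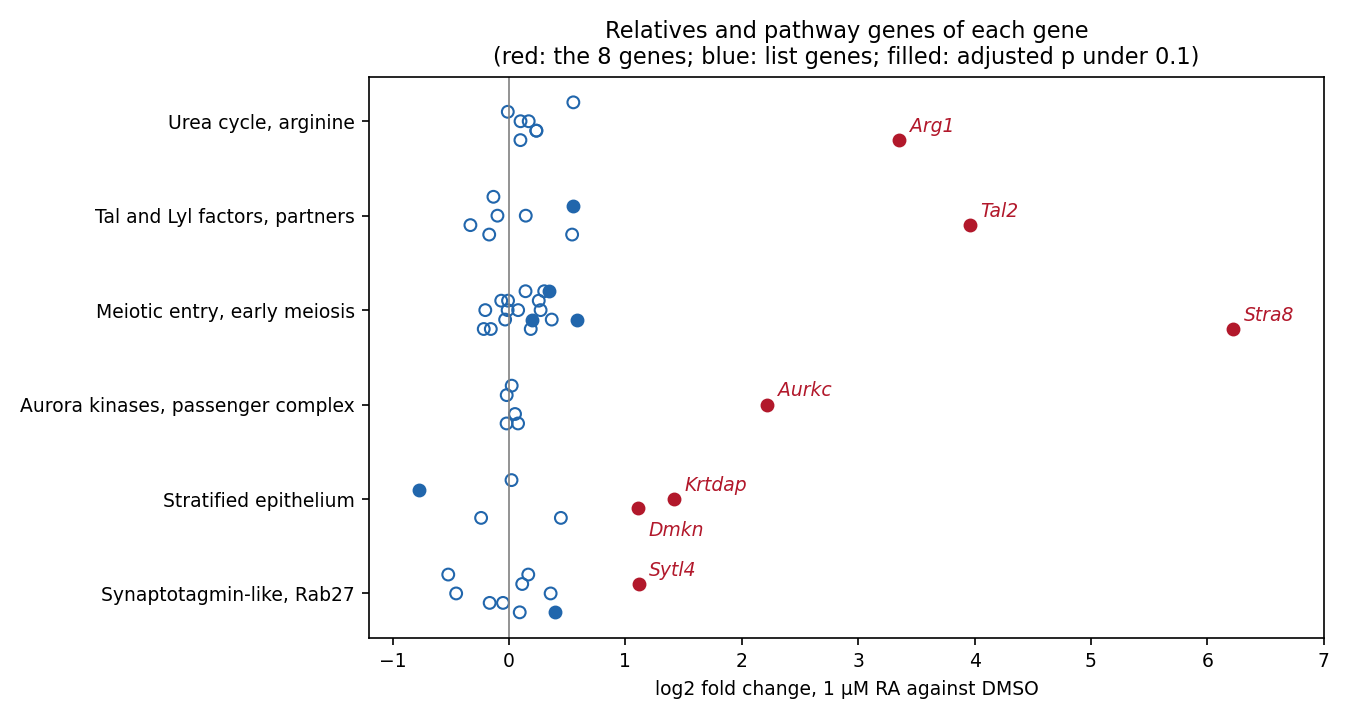
Log2 fold change at 1 µM RA against DMSO (horizontal axis) of the tested genes of 6 family and pathway lists (rows), with the 8 genes in red, list genes in blue, and filled points for an adjusted p under 0.1. Csn3 is absent because no other milk gene was tested. The red points lie between 1.11 and 6.22, while the called blue points lie between -0.77 and 0.59. The red genes were chosen for their rise, so that this gap is a description.

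The order of the levels per kilobase changed with RA. In DMSO, Arg1 was highest, and Sytl4, Dmkn and Krtdap followed with ranges that overlapped each other. Aurkc came next and then Tal2, each below the gene before it without overlap, and Stra8 and Csn3 were lowest and overlapped. With 1 µM RA, Arg1 was again highest, followed by Csn3 at 2.24 to 2.73 RPKM and by Tal2 at 1.87 to 1.99 RPKM. Dmkn, Krtdap, Sytl4, Aurkc and Stra8 had means between 1.24 and 1.33 RPKM and ranges that overlapped each other. Apart from Arg1, the genes stood between percentile 48.2 and percentile 54.6 of all genes at that dose, near the middle of all genes in the tables.

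**Figure D3:**
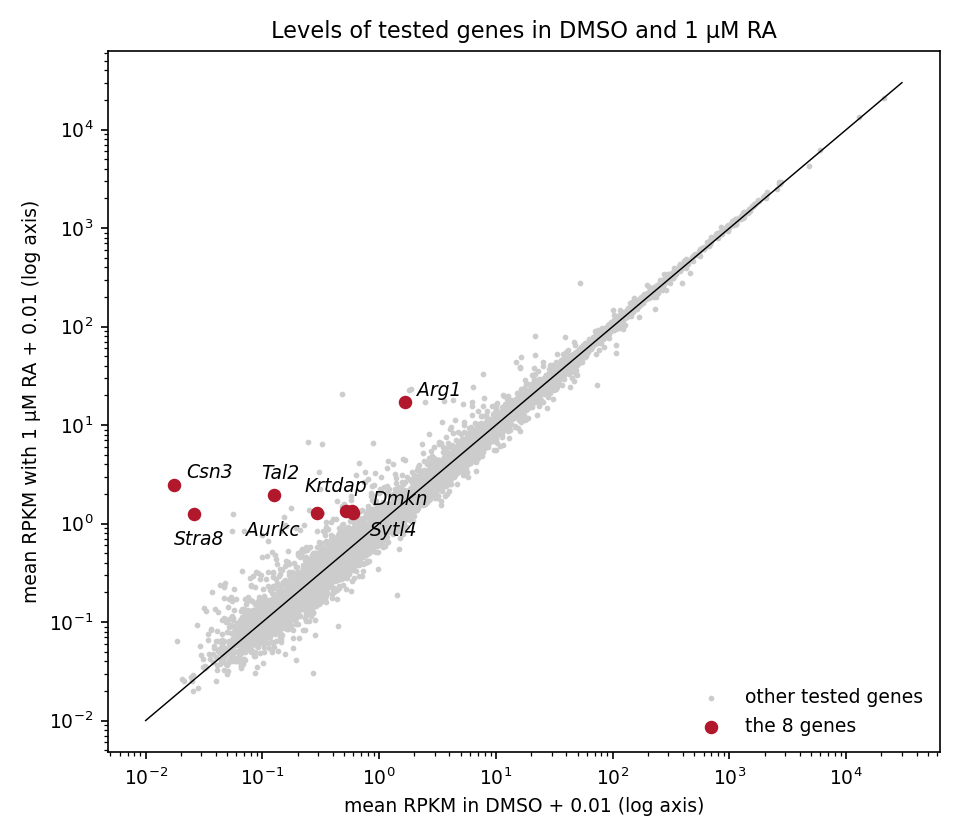
Mean RPKM in DMSO (horizontal) and with 1 µM RA (vertical), both plus 0.01 on log axes, for all 15143 tested genes in grey and the 8 genes in red, with the line of equal levels. The red points lie above the line, Csn3 and Stra8 at the far left and Arg1 at 1.65 and 17.1 RPKM.

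The 2 RA doses were next compared directly. All 8 genes had a higher RPKM in both 1 µM dishes than in both 25 nM dishes, as did 22.7% of tested genes, and all 8 log2 differences were positive, with a median of 0.35. In CPM, however, the dishes of the 2 doses overlapped for Dmkn, at 0.913 and 1.24 with 25 nM and 1.22 and 1.18 with 1 µM RA. They also overlapped for Sytl4, at 5.23 and 4.51 with 25 nM and 5.65 and 5.08 with 1 µM RA. The edgeR test called 2 of the 8 genes higher at 1 µM than at 25 nM RA, Arg1 and Stra8, beside 0.792% of tested genes called higher and 2.62% called lower. The genes were chosen for a rise at one or both doses, which used these same RA samples, so that the adjusted p-values describe these samples and are no independent evidence that the genes rise with dose.

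Arg1 was higher at 1 µM than at 25 nM RA by a log2 difference of 0.40 (SE 0.07, edgeR adjusted p = 8.3e-07), and the ratio of summed counts was 1.32 (exact 95% counting interval 1.24 to 1.41). Stra8 was higher by 0.70 (SE 0.20, edgeR adjusted p = 0.02), with a ratio of 1.63 (1.26 to 2.12). The call for Stra8 was lost with edgeR's quasi-likelihood test (adjusted p = 0.13) and when either 25 nM dish or the second 1 µM dish was left out, with adjusted p from 0.2 to 0.27, while its direction was kept. For Arg1 the call held in all 14 alternatives.

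The other 6 genes did not pass the test between doses. The log2 difference of Csn3 was 0.36 (SE 0.16, edgeR adjusted p = 0.28), with a count ratio of 1.28 (1.09 to 1.51), and that of Tal2 was 0.34 (SE 0.17, edgeR adjusted p = 0.38), with a ratio of 1.27 (1.02 to 1.58). Aurkc differed by 0.34 (SE 0.22, edgeR adjusted p = 0.51) and Krtdap by 0.47 (SE 0.33, edgeR adjusted p = 0.57). The smallest differences were those of Sytl4, 0.16 (SE 0.13, edgeR adjusted p = 0.63), and Dmkn, 0.15 (SE 0.24, edgeR adjusted p = 0.85), whose count ratios had intervals of 0.967 to 1.30 and 0.805 to 1.52. These intervals include ratios as large as that of Arg1 for Dmkn and do not show equal levels.

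In RPKM, the rise at 25 nM was 52.2% to 78.8% of the rise at 1 µM RA across the 8 genes, with a median of 72.8%. For Arg1 it was 73.1%, for Csn3 78.5% and for Stra8 60.6%. The summed RPKM of a gene with several transcripts depends on the split of its counts, so that the share can change with the unit. For Dmkn it was 58.0% in RPKM, while in CPM its 25 nM and 1 µM dishes overlapped. Among the 552 other genes called higher at both doses, 68.3% had a positive log2 difference between doses, the median was 0.05, the quartiles were -0.02 and 0.15, and 11.1% were called higher at 1 µM RA. Known RA response genes of caudal cells gave larger steps, with 5 of 6 called higher at 1 µM than at 25 nM RA and a median log2 difference of 0.44. Dhrs3, a retinaldehyde reductase, differed by 0.66 (SE 0.06, edgeR adjusted p = 8e-22), Cyp26a1, which degrades RA, by 0.64 (SE 0.05, edgeR adjusted p = 3.4e-35), and Rarb, an RA receptor, by 0.36 (SE 0.07, edgeR adjusted p = 0.0003).

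**Figure D4:**
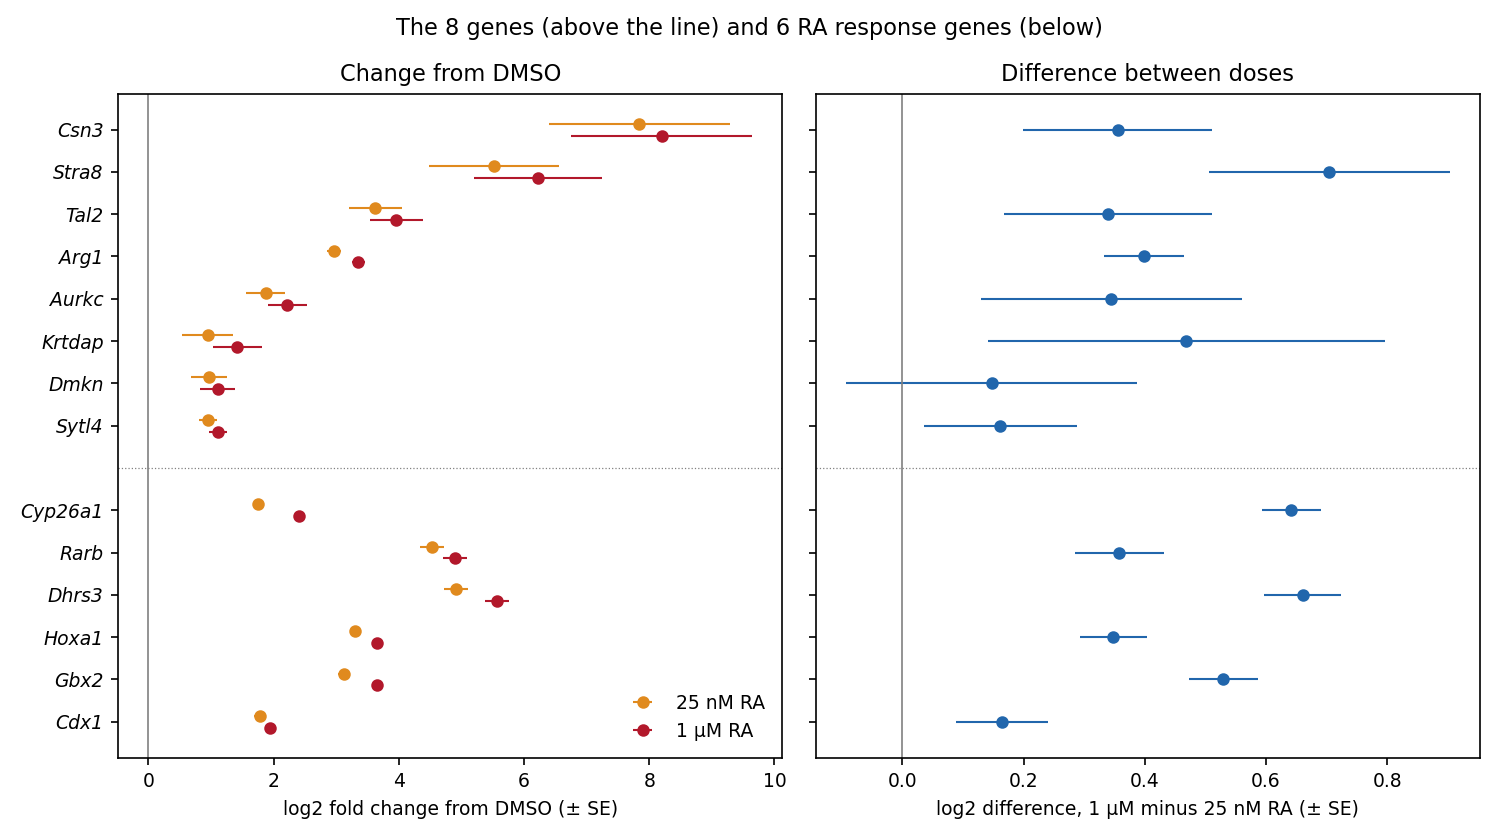
Log2 fold change from DMSO at 25 nM RA and 1 µM RA (left) and log2 difference of 1 µM minus 25 nM RA (right), each with its standard error, for the 8 genes above the dotted line and 6 RA response genes below it. On the left the 8 genes run from 8.20 for Csn3 at 1 µM RA down to 0.95 for Sytl4 and Krtdap at 25 nM. On the right, among the 8 genes, only the bar of Dmkn crosses 0, although only Arg1 and Stra8 were called. A standard error bar clear of 0 is therefore not a call.

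Whether a gene of this set appears as activated at the lower dose depends on the cutoff. When a call, a log2 fold change over 1 and an RA mean over 1 RPKM were asked together, 3 genes passed at 25 nM RA (Csn3, Tal2 and Arg1) and all 8 at 1 µM RA, beside 0.442% and 0.568% of all tested genes. Stra8 and Aurkc missed at 25 nM RA by their level alone, with means of 0.759 and 0.992 RPKM. Dmkn and Sytl4 passed the level, with 1.02 and 1.13 RPKM, and missed by log2 fold changes of 0.96 and 0.95. Krtdap missed all 3 parts. At 1 µM RA the closest to the cutoff were Stra8, at 1.24 RPKM, and Dmkn and Sytl4, each at a log2 fold change of 1.11.

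The genes around the 8 were then examined. The 2 nearest genes on either side in the RefSeq table, counted once and without the 8 themselves, were 28 genes between 1.68 and 91.3 kb away, of which 17 were in the tables and 11 were tested. At 25 nM RA 1 of the 11 was called higher and at 1 µM RA 2 were, none was called lower, and the median log2 fold changes were 0.05 and 0.07. Of all tested genes, 4.50% were called higher at 25 nM and 8.54% at 1 µM RA, and 3.55% and 11.2% were called lower. Wdr91, an endosomal WD repeat protein 9.33 kb before Stra8, rose by 0.35 (SE 0.07, edgeR adjusted p = 3.7e-05) at 25 nM and by 0.51 (SE 0.07, edgeR adjusted p = 1.4e-11) at 1 µM RA on the log2 scale, with 709 and 553 counts in DMSO and 843 and 834 with 1 µM RA. Tspan6, a tetraspanin 35.2 kb from Sytl4, rose by 0.14 (SE 0.05, edgeR adjusted p = 0.042) at 1 µM RA.

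Other neighbours were not called. Med23, a Mediator subunit that ends 1.68 kb from Arg1, was counted 2795 to 3574 times in a dish and had log2 fold changes of 0.05 (SE 0.05) and 0.06 (SE 0.05). Tmem38b, beside Tal2, was not called at either dose. Around Csn3, the only listed neighbour in the tables was Cabs1, 46.9 kb away, with at most 1 count in a dish. The search was then extended outward to the 2 nearest tested genes on either side, a step chosen after the values were seen. It gave 28 genes up to 1753 kb away. At 1 µM RA 3 of these were called higher and 2 lower, beside 8.54% and 11.2% of all tested genes. For Csn3 the extension meant genes at 622 kb and more, none of which was called.

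**Figure D5:**
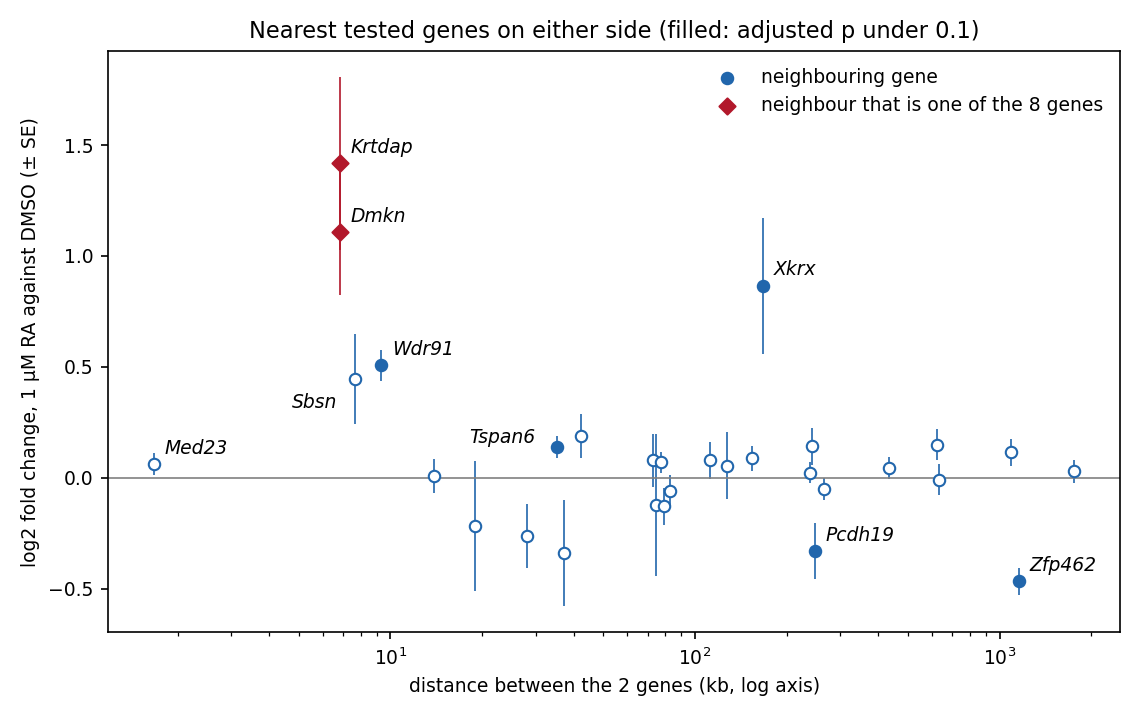
Log2 fold change at 1 µM RA against DMSO with its standard error (vertical) of the 2 nearest tested genes on either side of each of the 8 genes, by distance in kb on a log axis, with filled points for an adjusted p under 0.1. Dmkn and Krtdap, each the neighbour of the other, lie above 1, Wdr91 is at 0.51, and Med23, the closest, is at 0.06.

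Genes with the most similar pattern were listed for each of the 8, by Pearson's r of log2(CPM + 0.5) over the 6 samples among the 3187 other genes called at either dose. Since the samples form 3 conditions of 2 dishes, high values are easily reached, and they are given as a description. Arg1 was closest to Dhrs3 (r = 0.9999) and to Nrip1, a nuclear receptor corepressor (r = 0.9998). Csn3 was closest to Scn2b and Adgra3, Stra8 to Nek2 and Il10rb, and Tal2 to Hoxb2 and Srxn1, with r from 0.998 to 0.9996. Sytl4 was closest to Etnk2 and Ier5l, Dmkn to Cygb and Ube2e1, Aurkc to Rab20 and Gramd4, and Krtdap to Snord8 and Plxna4, with r down to 0.988 for Krtdap. Sizes differed widely within such pairs: Dhrs3 rose from 0.468 RPKM ± 0.152 (SD, n = 2) in DMSO to 20.5 ± 0.389 with 1 µM RA, to a level near that of Arg1, whereas Ube2e1 had a log2 fold change of 0.13 beside 1.11 for Dmkn.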

How the data were processed

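NMPs were assayed by RNA-seq of ribosome-depleted total RNA in 6 samples, grouped by their labels into DMSO, 25 nM RA and 1 µM RA with 2 dishes each. The authors aligned single-end reads to mm10 (TopHat2 2.0.13 and Bowtie2 2.2.5.0 in the submitters' processing notes) and split reads over transcripts with an expectation-maximization step. The resulting estimated counts, which are not normalized, and the RPKM values of 30352 RefSeq transcripts were deposited by the authors. Counting strand is not given in the sources used here.

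Estimated counts were summed per gene over the 20631 genes, rounded, filtered with filterByExpr and normalized by TMM (factors 0.989 to 1.008), and all 6 samples were fitted in edgeR 4.0.16 (R 4.3.3) with 1 coefficient per condition. Following the methods, p-values came from the likelihood ratio test and were Benjamini-Hochberg adjusted over 15143 genes. With 2 samples per condition, no permutation test was made. RPKM was summed over the transcripts of a gene, errors of RPKM are SDs and those of log2 fold changes are standard errors of the fit. Intervals of count ratios are exact (Clopper-Pearson), use TMM-scaled depth and cover counting error only. Last positions are given as the tables' stop minus 1, which equals the RefSeq end for 11287 of 19626 genes, against 734 for the stop as written.

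The 8 genes and the family, pathway and marker lists were chosen with earlier results of these data known. Named are the 8 genes, called or locus-sharing genes among their 2 nearest neighbours on either side, list genes that were called or define a tissue, and for each of the 8 the 2 genes of highest correlation. List symbols absent from the tables were matched through RefSeq accessions or older symbols. The test was checked on simulated data. As alternatives, DESeq2 1.42.0, its size factors, the quasi-likelihood test of edgeR, total counts, no filter, only the 4 samples compared, a replicate block, transcripts as deposited, an adjusted p under 0.05, TMM-scaled RPKM and leaving out each sample were tried. Results for some genes are not reported here.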

Additional observations from a re-analysis of the deposited data

How the results depend on the processing

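The counts of called genes among the 8 were 7 at 25 nM, 8 at 1 µM and 2 between doses in the test reported. Leaving out 1 sample gave 6 to 7, 7 to 8 and 1 to 2, with Krtdap lost at 1 µM RA without the first DMSO dish. Between doses the quasi-likelihood test and the transcripts each left 1 of 8 called, Arg1. The DESeq2 Wald test also called 1, Arg1, but gave an adjusted p for only 2 of the 8 there, Arg1 and Sytl4, and none for Krtdap at 1 µM RA against DMSO. Transcripts as deposited left 5 and 7 of 8 called at 25 nM and 1 µM RA. Of the log2 changes against DMSO that could be computed, none reversed. Between doses, the log2 difference of Dmkn ran from -0.0366, without the first 25 nM dish, to 0.4065 leaving out 1 sample, and that of Sytl4 was -0.15 for its most counted transcript, neither reversal being called.

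Over all genes, 1219 were called at 25 nM RA, 567 with DESeq2 and 799 to 1345 leaving out 1 sample. At 1 µM RA 2983 were called, 1594 with DESeq2, 1833 by transcript and 1922 to 2838 leaving out 1 sample. Between doses 516 were called, 336 with the quasi-likelihood test, 158 with DESeq2, 340 at an adjusted p under 0.05 and 205 to 577 leaving out 1 sample. Deviations of same-numbered dishes from their condition means correlated at -0.07, 0.07 and -0.09, so the numbers do not pair the dishes. A replicate block gave 1138, 2756 and 423 genes and changed none of the 8 genes' calls. Rescaling RPKM by TMM moved all 24 mean levels by less than 1 SD. Where a dish was left out, the lone dish of its condition was taken to vary like the others. Krtdap, Dmkn and Aurkc had at most 80 counts in a dish.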

Other observations

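Other low genes were higher with RA as well, and are described here from a cutoff chosen after the values were seen. Of 2884 tested genes under 0.5 RPKM in DMSO, 40 were called higher at 1 µM RA with a log2 fold change above 2, and 4 of the 8 genes (Csn3, Stra8, Tal2 and Aurkc) were among them. Genes of the RA pathway and of the Hox clusters were in this group. Rarb, an RA receptor, went from 0.237 RPKM ± 0.0322 (SD, n = 2) in DMSO to 6.77 ± 0.171 with 1 µM RA, and Hoxa2 from 0.299 ± 0.0669 to 2.26 ± 0.112. Cyp26b1, an enzyme that degrades RA, had a log2 fold change of 1.16 (SE 0.56) at 25 nM, which was not called, and of 2.47 (SE 0.51, called) at 1 µM RA.

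A further 4 genes of the group were picked after their values were seen. Dlx3, a homeobox factor of placenta and epidermis, went from 0.0595 RPKM ± 0.0314 (SD, n = 2) to 0.840 ± 0.0387 with 1 µM RA. Oprd1, the delta opioid receptor, went from 0.166 ± 0.0183 to 1.43 ± 0.0515, and Oxtr, the oxytocin receptor, from 0.0226 ± 0.0101 to 0.120 ± 0.0153. Sost, the osteocyte product sclerostin, went from 0.118 ± 0.0601 to 0.471 ± 0.0591. The mean levels of these 4 genes with 1 µM RA were below those of Arg1, Csn3 and Tal2. The mean of Oprd1 was above those of Stra8, Aurkc, Sytl4, Krtdap and Dmkn, which lay between 1.24 and 1.33 RPKM. The means of Dlx3, Oxtr and Sost were below these as well.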
